A study of Mus musculus with 66 samples.

Results

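The subject is the response of the mouse large bowel to chemical injury at experimental day 9, and how that response differed between the rectum and the mid-colon. It rests on 14 of the 66 bulk RNA sequencing samples of the series, chosen by their labels: rectal and mid-colonic sections of days 0 and 9, from 7 of the 19 mice. All were wild-type C57Bl/6 mice bought at 6 weeks of age. The 3 mice of day 9 (mice 11, 12 and 13) had been offered 3% dextran sulfate sodium (DSS) for 6 days from day 0, and the 4 mice of day 0 (mice 1 to 4) were uninjured. Each mouse gave 1 rectal and 1 mid-colonic section, stripped of its muscle layer, so that a group has 4 samples at day 0 and 3 at day 9. The response of a section is its mean log2(TPM + 1) at day 9 minus that at day 0. The difference of responses is the rectal response minus the mid-colonic one, so a positive value marks a gene that gained more, or lost less, in rectum.

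DSS damages the lining of the large bowel and lets luminal bacteria reach the mucosa. Epithelial and stromal cells and resident macrophages then release interleukin-1, chemokines and colony-stimulating factors, which draw in neutrophils and monocytes. These cells bring calprotectin and proteases, the epithelium makes acute-phase and antimicrobial proteins, and the crypts divide to close the wound. In this model the injury is known to be most severe toward the distal end.

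TPM values are shares of a library and keep no read depth, so no counting error can be attached to a value, and a 0 means only that a gene is listed at 0. Genes with at least 1 TPM numbered 11268 to 13234 per library, and the 10 most abundant genes held 15.0% to 31.1% of the total. Mitochondrial transcripts held 8.05% to 11.6% in rectum at day 9 and 12.1% to 19.3% in mid-colon at day 9, so the libraries did not share one composition. Markers of colonic mucosa were present throughout: Car1, a carbonic anhydrase of colonocytes, had 839.5 to 4883 TPM over the 14 libraries and the goblet cell mucin Muc2 473 to 1052 TPM. Rectal libraries also held squamous keratins: the 12 squamous markers summed to 20.5 to 229 TPM at day 0, to 766 TPM in the day 9 rectum of mouse 11 and to 134 and 108 TPM in those of mice 12 and 13. In mid-colon they summed to 16.0 to 25.5 TPM at day 9. Smooth muscle markers were low in the day 9 rectum of mouse 12 (252 TPM, against 1439.8 and 1452 TPM in mice 11 and 13), and skeletal muscle markers were high in that of mouse 13 (131 TPM, against 4.19 and 17.7 TPM).

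Both sections changed on a large scale by day 9, and the rectal change was the larger for most genes on which they differed. In rectum 4329 of 13520 genes rose (32%) and 2597 fell (19.2%), and in mid-colon 3847 rose (28.5%) and 2390 fell (17.7%). The response differed between the sections for 885 genes (6.55%): 790 had the higher response in rectum (5.84%) and 95 the lower (0.703%). Called, rose and fell refer throughout to a Benjamini-Hochberg adjusted p under 0.05 from limma over all 13520 genes. Of the 790 genes, 398 rose in both sections and 328 rose in rectum with no call in mid-colon. A further 40 fell in mid-colon with no call in rectum, 14 rose in rectum and fell in mid-colon, and 10 fell in both, less so in rectum. The 95 genes were mixed: 30 rose in both sections, 26 fell in both, 22 fell in rectum only, 15 rose in mid-colon only and 2 fell in rectum and rose in mid-colon, where "only" means that the other section gave no call. Genes are named by a rule on size and on list membership, and further list genes were chosen after their values were seen. The median difference was 1.51 (log2) in size over the 790 and 0.99 over the 95, and -0.04 over all genes tested.

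The split depends on the scaling: with TMM factors 771 genes were higher and 391 lower (66.4% higher, against 89.3% as deposited), and with mitochondrial genes left out 714 and 231 (75.6% higher). TMM factors moved the median response of all genes in rectum from 0.13 to -0.02, and there 3781 genes rose and 3866 fell (49.4% of the calls were rises, against 62.5% as deposited). Values below are as deposited. The counts also rest on single mice: 557, 509 and 512 genes were called without mouse 1, 2 or 3, and 353 without mouse 13 (344 higher, 9 lower). Some genes given below with an adjusted p without mouse 13 also missed the threshold with another mouse left out, among them Tnf, Ereg, Selp, Socs3, Nfkbia and Sct. With all 6 days in one fit 501 genes were called, and among genes named below S100a8 (0.26), Saa3 (0.0764), Mmp3 (0.133), Arg1 (0.365), Msln (0.12), Csf3r, Cxcr2, Il6, Il11, Cfb, Plau and Akr1c19, which kept their call with any mouse left out, then missed the threshold (adjusted p in parentheses). With the mouse as a block, 920 genes (6.8%) were higher and 144 (1.07%) lower. Between rectum and mid-colon, 25 genes (0.185%) were called at day 0, against 2554 (18.9%) at day 9. The small count at day 0 does not show that the sections were alike before injury. Some genes named below did not overlap between the sections at day 0. Among them, H2-Aa, Col3a1 and Defb45 were higher in rectum and Insl5 was lower.

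**Figure D1:**
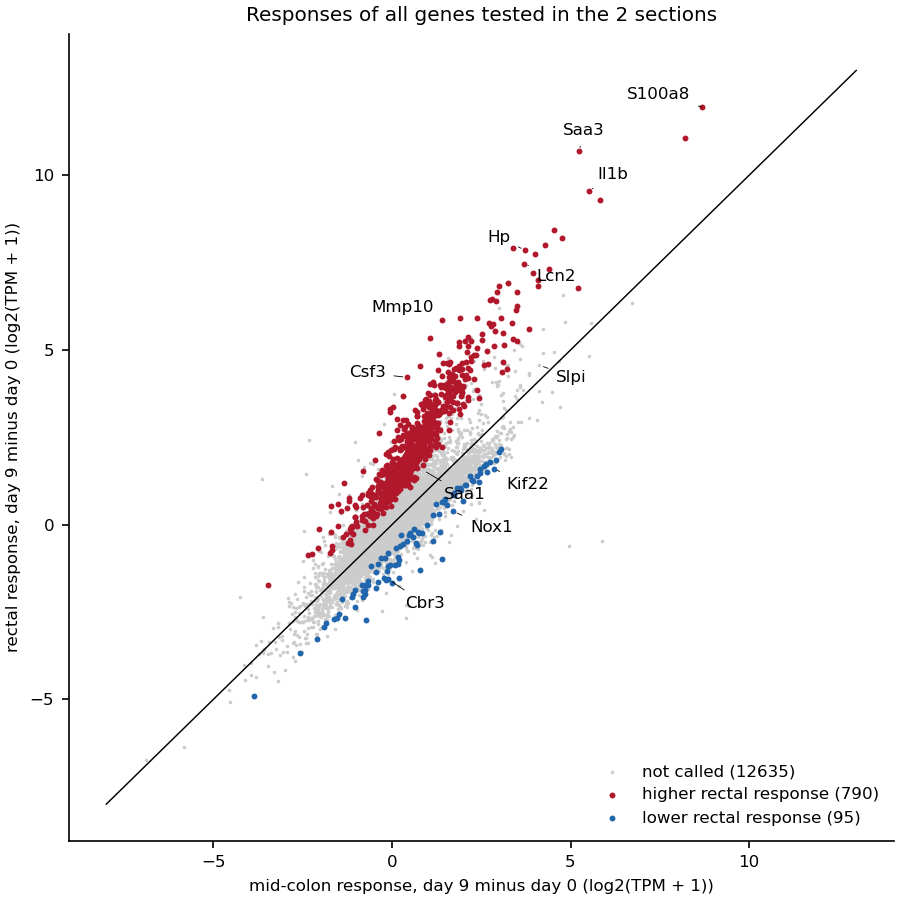
Response of 13520 genes in rectum (vertical axis) against mid-colon (horizontal axis), each as the day 9 mean minus the day 0 mean of log2(TPM + 1), with the line of equal response. The 790 genes with the higher rectal response (red) lie above the line and the 95 with the lower (blue) below it; S100a8 and Saa3 lie at the top, Slpi and Saa1 are named but not called.

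Promoter sequences are shown for 5 genes to which the results return: Saa3, the gene with the largest difference of all called genes, its relative Saa1, which was not called, the chemokine gene Cxcl3 and the collagenase and stromelysin genes Mmp13 and Mmp10. Each line holds the 250 bases before the annotated start, 5′ to 3′ on the gene's strand, from RefSeq (GRCm38.p6). Capitals mark matches on either strand to the C/EBP motif TTGCNNAA, the AP-1 motif TGANTCA or the NF-kB motif. These are the sites of factor families known to act on acute-phase genes, on metalloproteinase genes and on chemokine genes, respectively.
Saa3: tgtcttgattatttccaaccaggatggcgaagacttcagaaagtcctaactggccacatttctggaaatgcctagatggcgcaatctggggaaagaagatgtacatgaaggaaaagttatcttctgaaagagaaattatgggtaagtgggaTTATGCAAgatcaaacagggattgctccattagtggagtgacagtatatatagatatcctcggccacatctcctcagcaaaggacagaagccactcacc
Saa1: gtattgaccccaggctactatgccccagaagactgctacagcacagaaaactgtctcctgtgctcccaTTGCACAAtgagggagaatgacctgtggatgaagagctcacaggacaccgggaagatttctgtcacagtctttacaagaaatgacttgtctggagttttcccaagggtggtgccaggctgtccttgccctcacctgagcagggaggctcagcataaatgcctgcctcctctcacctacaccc
Cxcl3: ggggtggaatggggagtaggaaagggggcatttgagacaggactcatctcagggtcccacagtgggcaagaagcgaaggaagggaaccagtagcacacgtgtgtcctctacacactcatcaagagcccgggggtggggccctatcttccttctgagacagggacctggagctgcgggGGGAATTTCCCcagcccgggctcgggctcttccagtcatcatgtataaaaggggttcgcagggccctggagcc
Mmp13: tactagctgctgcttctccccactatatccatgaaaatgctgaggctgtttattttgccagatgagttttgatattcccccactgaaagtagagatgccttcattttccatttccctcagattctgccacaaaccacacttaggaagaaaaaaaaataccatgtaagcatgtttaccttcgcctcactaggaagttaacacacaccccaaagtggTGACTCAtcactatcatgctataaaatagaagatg
Mmp10: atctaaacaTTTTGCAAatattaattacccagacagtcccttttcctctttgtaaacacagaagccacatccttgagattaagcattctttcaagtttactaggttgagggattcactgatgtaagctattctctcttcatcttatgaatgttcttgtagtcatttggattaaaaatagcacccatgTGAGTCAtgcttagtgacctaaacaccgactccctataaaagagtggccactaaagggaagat
The windows lie at chr7:46715677-46715926, minus strand (Saa3), chr7:46742981-46743230, minus strand (Saa1), chr5:90785851-90786100, plus strand (Cxcl3), chr9:7272264-7272513, plus strand (Mmp13) and chr9:7502092-7502341, plus strand (Mmp10). Saa3 holds a C/EBP match 99 bases before its start and Saa1 one at 182 bases. Cxcl3 holds 2 overlapping NF-kB matches at 73 and 72 bases, shown as a single run of capitals. An AP-1 match stands 35 bases before the start of Mmp13 and 63 bases before that of Mmp10, which also has a C/EBP match at 241 bases. The windows of Lcn2, Chil1 and Stfa2l1 were searched too and are not shown. Lcn2 held 1 C/EBP match, Chil1 held 1 NF-kB match and Stfa2l1 held no match to any of the motifs. Among the 9840 tested genes with a promoter in the table, 7.74% held the C/EBP motif, 4.81% the AP-1 motif and 8.72% the NF-kB motif. Among the 587 such genes with the higher rectal response the shares were 11.9%, 9.71% and 11.2%, and among the 68 with the lower response 10.3%, 1.47% and 7.35%. Over all 27025 promoters of the table they were 9.55%, 6.87% and 7.01%. A match describes letters in a window and says nothing of whether a factor binds there.

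Neutrophil genes formed the group with the highest median difference, 3.06 (log2) against -0.04 over all genes. All 15 of the 16 listed genes that could be tested were higher in the rectal response. All 15 rose in rectum and 13 rose in mid-colon. Without mouse 13 the count was 12, and with TMM factors 14. In bulk tissue, more cells of a type and more RNA per cell cannot be told apart.

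S100a8 (ENSMUSG00000056054, GRCm38 chr3:90668978-90670035, plus strand) encodes a subunit of calprotectin, an abundant protein of neutrophil cytosol. It was listed at 0, 1.27, 0.715 and 0 TPM in the 4 rectal samples of day 0, and reached 6975, 5487 and 4504 TPM in mice 11, 12 and 13. In mid-colon it went from 0, 0, 0.464 and 0.780 TPM to 607, 1012 and 226 TPM. S100a8 thus rose in both sections, and the lowest rectal value at day 9 was above the highest mid-colonic one. The difference was 3.28 ± 0.60 SE, adjusted p 0.00424, or 0.266 with a pseudocount of 0.1. S100a9, its partner subunit, went from 1.84, 1.74, 4.22 and 0.247 to 5204, 6123 and 5734 TPM in rectum and from 0, 0.323, 1.43 and 1.42 to 519, 1057 and 213 TPM in mid-colon, a difference of 2.86 ± 0.72 SE, adjusted p 0.0274, which became 0.16 with the least favourable mouse left out. For S100a9 it was 0.459 with a pseudocount of 0.1 and 0.409 with all 6 days in one fit.

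Receptors and sensors of neutrophils were higher too. Fpr2, a receptor for formyl peptides and for serum amyloid A, was at 64.8, 165 and 109 TPM in rectum against 8.81, 16.2 and 4.49 TPM in mid-colon at day 9, after at most 0.590 TPM at day 0 (3.49 ± 0.49 SE, adjusted p 7.60e-04). Clec4e, a C-type lectin that senses damaged cells and mycobacterial lipid, went from 0, 0.0212, 0.161 and 0.0142 to 83.5, 166 and 146 TPM in rectum and from 0.0155, 0.0556, 0.0362 and 0.0102 to 10.9, 18.2 and 3.10 TPM in mid-colon. The sections did not overlap at day 9 for either gene, and the difference of Clec4e was 3.68 ± 0.54 SE, adjusted p 9.75e-04. Csf3r, the receptor for G-CSF, had 45.2, 81.1 and 96.7 TPM in rectum against 5.57, 19.5 and 4.91 TPM in mid-colon at day 9, a difference of 2.87 ± 0.50 SE, adjusted p 0.00301. Cxcr2, the receptor for the neutrophil chemokines below, had 27.2, 39.2 and 38.1 TPM in rectum against 4.26, 10.3 and 2.51 TPM in mid-colon, a difference of 2.50 ± 0.41 SE, adjusted p 0.00207.

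Granule genes, which neutrophils transcribe mainly before they leave the marrow, were far lower in TPM than calprotectin. Mmp8, neutrophil collagenase, was at 88.9, 46.9 and 39.4 TPM in rectum against 10.7, 8.14 and 1.71 TPM in mid-colon at day 9 (3.06 ± 0.55 SE, adjusted p 0.00358). Camp, a cathelicidin, was at 4.29, 2.09 and 1.55 TPM in rectum and listed at 0 in all 3 mid-colonic samples (adjusted p 0.00408). Of the day 9 samples only the rectal ones reached the filter of 1 TPM for Camp. The filter may thus have partly set its place in the count. Ly6g was the exception among these markers: it already held 602 to 736 TPM in rectum against 532 to 954 TPM in mid-colon at day 0, when S100a8 was near 0. It rose to 1399.8 to 2078 TPM in rectum, a difference of 0.94 ± 0.26 SE (adjusted p 0.0419, up to 0.134 with a mouse left out), and its value is uncertain because the Ly6 family holds close copies.

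Acod1, which makes itaconate in activated myeloid cells, was at 84.2, 546 and 442 TPM in rectum against 17.8, 59.9 and 5.69 TPM in mid-colon at day 9, after at most 0.126 TPM at day 0. Mouse 11 was the lowest in rectum, and mouse 13 the lowest in mid-colon. The difference was 3.72 ± 0.89 SE, adjusted p 0.0217, but 0.151 without mouse 13 and 0.0597 to 0.0741 without a single day 0 mouse. Stfa2l1, a stefin (an inhibitor of cysteine proteases) outside the list, was listed at 0 in all 8 samples of day 0 and had 153, 242 and 259 TPM in rectum against 12.8, 30.7 and 8.33 TPM in mid-colon at day 9 (difference 3.74 ± 0.43 SE, adjusted p 3.30e-04). Stefin genes have near-identical neighbours, so this value too is uncertain.

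**Figure D2:**
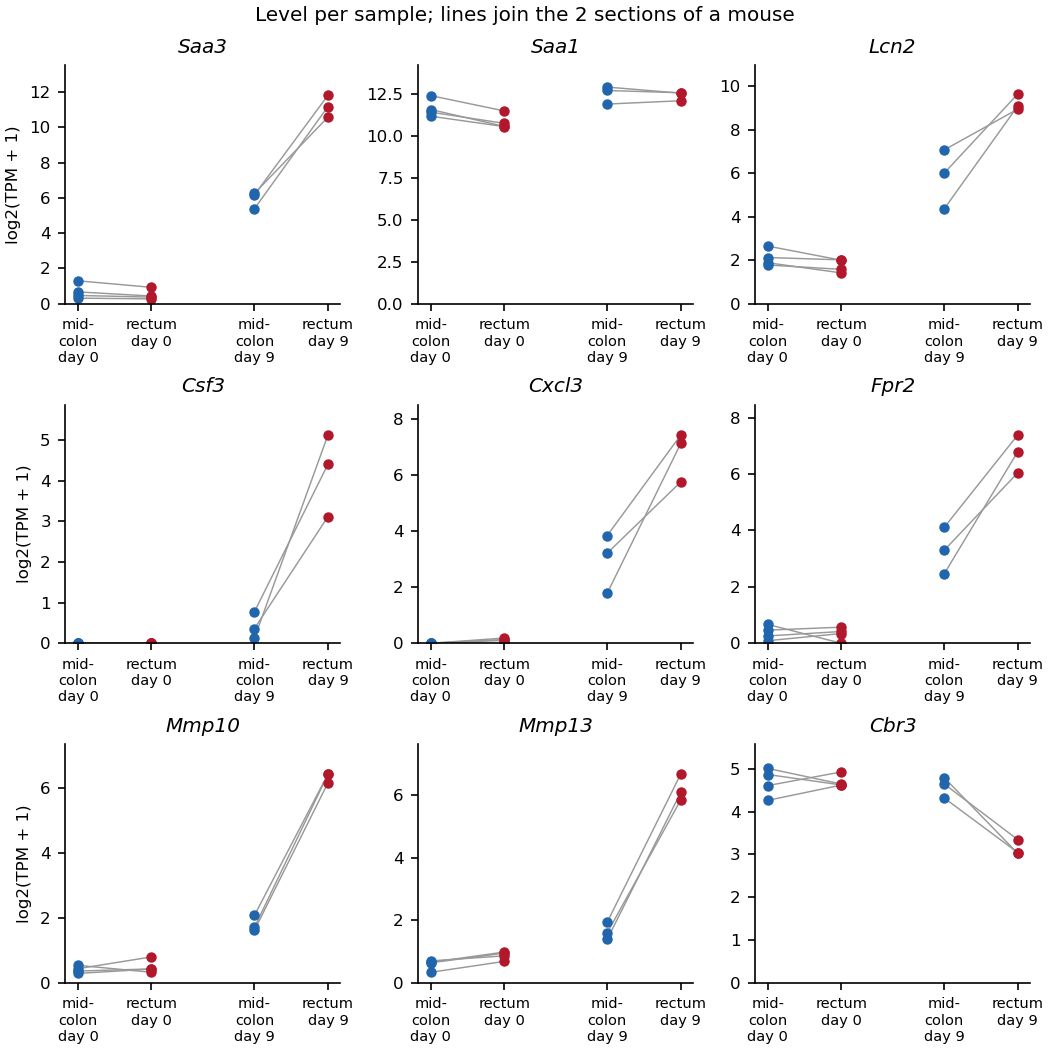
Level of 9 genes in each of the 14 samples, as log2(TPM + 1) on axes that start at 0; blue points are mid-colon, red points rectum, and a line joins the sections of 1 mouse. At day 9 every line rises toward rectum for Saa3, Lcn2, Csf3, Cxcl3, Fpr2, Mmp10 and Mmp13 and falls for Cbr3, while for Saa1 the lines are nearly flat. Most of these genes were named for the size of their difference, so the choice partly set these slopes.

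Of 8 tested genes of 11 listed as signals that recruit neutrophils, 5 were higher in the rectal response and none lower, with a median of 1.88, and 7 rose in rectum against 4 in mid-colon. The count was 2 without mouse 13. Csf2, Il17a and Il23a were too low to be tested.

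Csf3 (ENSMUSG00000038067, GRCm38 chr11:98701263-98703629, plus strand) encodes G-CSF, which drives the production and release of neutrophils. It was listed at 0 in all 8 samples of day 0, and reached 7.68, 20.2 and 33.9 TPM in rectum at day 9. The mid-colonic values were 0.284, 0.711 and 0.0917 TPM, so that no mid-colonic sample came near the rectal ones. The difference was 3.80 ± 0.46 SE, adjusted p 4.24e-04, and mid-colon alone gave no call (0.42, adjusted p 0.316). Csf3 reached the filter of 1 TPM only in the day 9 rectal samples, so the filter partly set its place in the count.

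Cxcl3 (ENSMUSG00000029379, GRCm38 chr5:90786103-90789600, plus strand), a ligand of Cxcr2 whose promoter is shown above, rose to 53.0, 171 and 139 TPM in rectum and to 8.28, 13.3 and 2.44 TPM in mid-colon, from at most 0.138 TPM at day 0. The difference was 3.72 ± 0.58 SE, adjusted p 0.00158, and held with any mouse left out (adjusted p at most 0.011). Cxcl2, a second ligand, was at 98.3, 594 and 723 TPM in rectum against 23.7, 71.2 and 7.30 TPM in mid-colon, a difference of 3.88 ± 0.92 SE with an adjusted p of 0.0194, or 0.129 without mouse 13. The call of Cxcl2 was lost too without any single day 0 mouse. Cxcl1 rose to 30.4, 32.0 and 41.3 TPM in rectum and to 16.2, 6.90 and 9.21 TPM in mid-colon (1.53 ± 0.35 SE, adjusted p 0.0155), with adjusted p 0.0538 with TMM factors and 0.137 without mouse 13. Cxcl5, which epithelium makes, went from 5.07, 4.55, 6.23 and 6.15 to 166, 285 and 162 TPM in rectum and from 3.35, 4.31, 2.94 and 4.30 to 107, 168 and 68.2 TPM in mid-colon. It rose in both, and its difference of 0.41 ± 0.38 SE was not called (adjusted p 0.629). Il17f, a cytokine that induces these chemokines, was at 2.99, 4.96 and 7.08 TPM in rectum against 0.798, 1.29 and 0.619 TPM in mid-colon (1.78 ± 0.38 SE, adjusted p 0.0113, 0.109 without mouse 13).

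Cytokines of the interleukin-1, interleukin-6 and TNF families, with their receptors and inhibitors, were mostly higher in rectum. Of the 16 tested genes, 12 were higher in the rectal response and none lower, with a median of 1.77. Il6 and Il22, counted among the 12, reached the filter of 1 TPM only in the day 9 rectal samples. The filter thus partly set their place in the count. In rectum 13 rose and 2 fell, and in mid-colon 8 rose and 2 fell. Without mouse 13, 4 were called.

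Il1b (ENSMUSG00000027398, GRCm38 chr2:129364570-129371139, minus strand), the main secreted interleukin-1, had 0.185, 0.0777, 0.327 and 0.498 TPM in rectum at day 0 and 326, 1592 and 1603 TPM at day 9. In mid-colon it had 0.218, 0.391, 0.522 and 0.571 TPM at day 0 and 51.4, 188 and 26.7 TPM at day 9. The lowest rectal value, that of mouse 11, was above the highest mid-colonic one, and the difference was 4.03 ± 0.81 SE, adjusted p 0.00735 (0.0645 without mouse 13). Il1a rose to 23.3, 273 and 250.3 TPM in rectum and to 5.64, 20.4 and 2.32 TPM in mid-colon (3.64 ± 0.99 SE, adjusted p 0.0424, 0.0585 with TMM factors and 0.295 without mouse 13). The call of Il1a was lost too without any single day 0 mouse. Il1rn, the antagonist of the interleukin-1 receptor, was already at 119 to 149.9 TPM in rectum at day 0 and rose to 273, 762 and 680.0 TPM. In mid-colon it had 95.0, 119 and 93.2 TPM at day 9 with no call (0.14, adjusted p 0.689), and the difference was 1.78 ± 0.37 SE, adjusted p 0.00924 (0.0922 without mouse 13).

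Within the interleukin-6 family, Il6 itself was listed at 0 at day 0 in every sample and had 2.41, 6.05 and 7.66 TPM in rectum against 0.344, 0.350 and 0.0648 TPM in mid-colon at day 9 (2.25 ± 0.34 SE, adjusted p 0.00127). Il11, a stromal member, had 5.42, 8.99 and 8.90 TPM in rectum against 0.0473, 0.573 and 0.106 TPM in mid-colon (2.86 ± 0.27 SE, adjusted p 7.67e-05). Both were thus present in rectum and barely listed in mid-colon. Osm, which myeloid cells make, had 7.48, 29.0 and 41.2 TPM in rectum against 1.28, 5.88 and 0.681 TPM in mid-colon (2.79 ± 0.68 SE, adjusted p 0.0232, 0.181 without mouse 13). The call of Osm was lost too without any single day 0 mouse. Its receptor gene Osmr had 10.9, 9.28 and 11.2 TPM in rectum against 3.07, 4.75 and 3.71 TPM in mid-colon (1.11 ± 0.21 SE, adjusted p 0.00562, 0.0545 without mouse 13). Socs3, the feedback inhibitor that these cytokines induce, rose steeply in both sections, by 6.76 in rectum and 5.22 in mid-colon, a difference of 1.54 ± 0.40 SE, adjusted p 0.0305, which became 0.0765 with TMM factors and 0.157 without mouse 13.

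Il22, which acts on epithelium to induce antimicrobial genes, was listed at 0 in all samples of day 0 and had 3.72, 3.62 and 9.45 TPM in rectum against 0.613, 0.340 and 0.126 TPM in mid-colon at day 9 (2.18 ± 0.33 SE, adjusted p 0.00143). Its receptor gene Il22ra1 fell by 0.68 in rectum and fell by 1.14 in mid-colon, and the difference was not called (0.46 ± 0.35 SE). Il10, an anti-inflammatory cytokine, had 6.03, 8.01 and 6.77 TPM in rectum against 0.715, 0.375 and 0.202 TPM in mid-colon (2.42 ± 0.21 SE, adjusted p 4.10e-05). Il33, an alarmin of stromal and epithelial nuclei, had 66.5, 76.8 and 94.4 TPM in rectum against 12.8, 26.8 and 25.3 TPM in mid-colon (1.48 ± 0.32 SE, adjusted p 0.0124, 0.0542 without mouse 13). Il18, which colonocytes make constitutively, fell from 182, 178, 172 and 150.4 to 49.1, 67.1 and 36.3 TPM in rectum and from 205, 212, 196 and 223 to 101, 92.9 and 132 TPM in mid-colon, with a difference of -0.81 ± 0.25 SE that was not called (adjusted p 0.0696). Tnf, the founding member of its family, was called without the block (1.76 ± 0.47 SE, adjusted p 0.0375) and not with it (adjusted p 0.0658), nor with TMM factors (0.083) or without mouse 13 (0.274).

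Targets and feedback inhibitors of NF-kB, the transcription factor through which interleukin-1 and TNF act, differed less in size. Of 11 genes 8 were higher in the rectal response, with a median of 1.24, and 9 with the mouse as a block, but 0 without mouse 13, where the median was 0.85. In rectum 8 rose and 1 fell, and in mid-colon 4 rose and 3 fell. Icam1, an adhesion molecule that binds neutrophils, went from 1.25, 0.440, 0.741 and 1.17 to 21.5, 39.3 and 42.6 TPM in rectum and from 0.616, 0.738, 0.841 and 0.740 to 6.15, 11.2 and 3.92 TPM in mid-colon (2.07 ± 0.41 SE, adjusted p 0.00643). Tnfaip3, which encodes the deubiquitinase A20, went from 29.5, 28.8, 22.5 and 23.1 to 44.9, 82.9 and 76.3 TPM in rectum, while in mid-colon it had 24.7, 28.0, 31.4 and 25.4 TPM at day 0 and 25.2, 28.0 and 22.6 TPM at day 9 (1.43 ± 0.27 SE, adjusted p 0.00512). Nfkbia, the inhibitor IkB-alpha, rose in both sections, to 151, 259.9 and 291 TPM in rectum and to 104, 74.0 and 59.5 TPM in mid-colon (1.35 ± 0.31 SE, adjusted p 0.0164). Birc3, an inhibitor of apoptosis, fell in mid-colon, from 64.3, 55.4, 68.6 and 63.2 to 46.1, 38.9 and 35.6 TPM. In rectum it had 74.4, 60.7, 67.3 and 75.5 TPM at day 0 and 75.8, 95.6 and 90.6 TPM at day 9, with no call there (0.96 ± 0.19 SE, adjusted p 0.00623). Without mouse 13 the adjusted p-values of these 4 genes were 0.0571, 0.0612, 0.154 and 0.0697.

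Acute-phase and epithelial defence genes split into a few with very large differences and a majority without a call. Of 17 genes 5 were called higher and 1 lower, and 11 were not called, although 15 of the 17 rose in each section. Their median was 0.60. With the mouse as a block 6 were higher and 2 lower.

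Saa3 (ENSMUSG00000040026, GRCm38 chr7:46711998-46715700, minus strand), a serum amyloid A made locally by macrophages, fibroblasts and epithelium, had the largest difference among the 885 genes, 5.44 ± 0.43 SE with an adjusted p of 2.11e-05. Its rectal values were 0.211, 0.354, 0.298 and 0.908 TPM at day 0 and 1524, 3591 and 2306 TPM at day 9, and its mid-colonic values 0.248, 0.594, 0.387 and 1.46 TPM at day 0 and 75.2, 70.8 and 40.7 TPM at day 9. The lowest rectal value of day 9 was thus far above the highest mid-colonic one. Saa1 (ENSMUSG00000074115, GRCm38 chr7:46740497-46742980, minus strand), its neighbour on chromosome 7, was among the most abundant transcripts in both sections before injury. It went from 1496, 1711, 1509 and 2856 to 5955, 4350.4 and 6055 TPM in rectum and from 2298, 2716, 3031 and 5378 to 7642, 3795 and 6643 TPM in mid-colon, so that the sections overlapped at day 9. Its difference of 0.70 ± 0.43 SE was not called (adjusted p 0.432), except with the mouse as a block (adjusted p 0.026), and Saa1 and Saa2 are close copies between which reads may be divided.

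Hp, haptoglobin, went from 0.0938, 0.0393, 0.0663 and 0.0504 to 133, 360.4 and 308 TPM in rectum and from 0, 0.0660, 0.129 and 0.253 to 14.7, 20.9 and 8.07 TPM in mid-colon (4.14 ± 0.44 SE, adjusted p 1.91e-04). Lcn2 (ENSMUSG00000026822, GRCm38 chr2:32384633-32388252, minus strand), lipocalin-2, which binds bacterial siderophores, went from 1.99, 1.68, 3.05 and 3.00 to 491, 794 and 539.5 TPM in rectum and from 2.44, 2.69, 3.36 and 5.29 to 133, 63.0 and 19.5 TPM in mid-colon. The mid-colonic values of Lcn2 spread widely, with mouse 13 lowest, and no mid-colonic value reached the rectal range (3.77 ± 0.64 SE, adjusted p 0.00268). The complement genes C3 and Cfb were called at smaller differences, 1.66 ± 0.36 SE and 1.20 ± 0.22 SE, adjusted p 0.0109 and 0.00453, and C3 was at 0.0823 without mouse 13. Cfb had 139.5, 219 and 164 TPM in rectum at day 9 against 73.6 to 82.7 TPM at day 0, and no call in mid-colon (-0.09).

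Other defence genes rose steeply in both sections with no called difference. Slpi, an inhibitor of neutrophil elastase, went from 71.4, 85.0, 57.9 and 44.5 to 1270.2, 1643 and 1661 TPM in rectum and from 45.2, 104, 41.8 and 28.0 to 1017, 835 and 766 TPM in mid-colon (0.44 ± 0.47 SE, adjusted p 0.689). Duoxa2, the maturation factor of the hydrogen peroxide-producing oxidase Duox2, went from 6.13, 11.0, 10.6 and 11.6 to 168, 261 and 219.8 TPM in rectum and from 4.32, 15.9, 7.20 and 9.94 to 117, 169 and 122 TPM in mid-colon (0.50 ± 0.45 SE, adjusted p 0.627). Slpi rose by 4.57 in rectum and 4.13 in mid-colon (log2), and Duoxa2 by 4.34 and 3.84. Retnlb, a goblet cell product, had a negative difference that was not called, with 8.33, 17.9 and 12.8 TPM in rectum against 21.1, 48.8 and 44.5 TPM in mid-colon (-1.34 ± 0.53 SE, adjusted p 0.183). Nox1, the superoxide-producing oxidase of colonic epithelium, was the single gene of the list called lower: it had 4.51, 5.10, 5.36 and 6.50 TPM at day 0 and 5.69, 8.81 and 7.49 TPM at day 9 in rectum, and 4.00, 5.77, 6.48 and 5.39 TPM at day 0 and 13.6, 16.3 and 34.7 TPM at day 9 in mid-colon (-1.34 ± 0.37 SE, adjusted p 0.0447, up to 0.156 with a mouse left out). Reg3b, an antimicrobial lectin, joined it with the mouse as a block (-1.12 ± 0.77 SE, adjusted p 0.0145 with the block and 0.493 without).

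Monocyte and macrophage genes came second to neutrophil genes in median, at 2.41. Of 15 genes 13 were higher in the rectal response and none lower, with all 15 higher with the mouse as a block and 9 without mouse 13. All 15 rose in rectum and 14 in mid-colon. Their sum was 956 to 2173 TPM in rectum against 128 to 273 TPM in mid-colon at day 9.

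The chemokines Ccl4 and Ccl3, ligands that monocytes and T cells follow, had the largest differences of the list. Ccl4 had 36.7, 567 and 702 TPM in rectum against 6.64, 40.1 and 3.82 TPM in mid-colon at day 9, after at most 0.209 TPM at day 0 (4.52 ± 1.18 SE, adjusted p 0.0325). Ccl3 had 27.0, 234 and 367 TPM in rectum against 6.19, 19.1 and 3.72 TPM in mid-colon, after at most 0.593 TPM (3.85 ± 0.95 SE, adjusted p 0.0251). The rectal value of mouse 11 was below the highest mid-colonic value for Ccl4 and above it for Ccl3. Without mouse 13 the adjusted p was 0.248 for Ccl4 and 0.189 for Ccl3. Both calls were lost too without any single day 0 mouse. Ccl3 and Ccl4 are close copies, so the division of reads between them is uncertain. Ccl7, a ligand of Ccr2, had 1.85, 1.80, 2.07 and 1.26 TPM at day 0 and 39.1, 32.3 and 47.1 TPM at day 9 in rectum and 0.688, 1.51, 2.06 and 1.65 TPM at day 0 and 6.39, 7.20 and 7.02 TPM at day 9 in mid-colon, a tighter contrast (2.18 ± 0.28 SE, adjusted p 5.48e-04). The receptor gene Ccr2 was not called without the block (1.05 ± 0.47 SE, adjusted p 0.254, 0.0353 with it).

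Pan-macrophage markers gave smaller differences. Cd14, the co-receptor for lipopolysaccharide, went from 14.9, 15.5, 18.6 and 16.4 to 318, 605 and 574 TPM in rectum and from 17.4, 18.8, 17.3 and 12.9 to 85.4, 112 and 51.7 TPM in mid-colon (2.60 ± 0.36 SE, adjusted p 6.84e-04). Cd68, a lysosomal protein of macrophages, went from 8.45, 11.2, 11.7 and 9.42 to 103, 92.4 and 127 TPM in rectum and from 4.27, 5.72, 6.31 and 4.94 to 18.3, 20.1 and 20.6 TPM in mid-colon (1.55 ± 0.22 SE, adjusted p 8.86e-04). Adgre1, which encodes F4/80, had 13.3, 12.9 and 15.5 TPM in rectum against 3.18, 3.75 and 3.33 TPM in mid-colon (1.23 ± 0.20 SE, adjusted p 0.00211). The 3 genes kept their call under every alternative tried. Arg1, which marks wound-type macrophages, had 92.8, 139 and 52.8 TPM in rectum against 2.69, 3.66 and 1.13 TPM in mid-colon (2.86 ± 0.59 SE, adjusted p 0.00921, 0.24 with a pseudocount of 0.1). Of the genes outside the lists, Arg2, the second arginase, went from 0.997, 1.05, 0.490 and 0.793 to 24.4, 55.1 and 51.9 TPM in rectum and from 0.969, 1.53, 1.35 and 1.07 to 2.88, 5.61 and 1.13 TPM in mid-colon, where it was not called (3.76 ± 0.47 SE, adjusted p 4.37e-04). Chil1, a chitinase-like lectin, had 35.9, 87.5 and 89.3 TPM in rectum against 4.33, 9.42 and 1.79 TPM in mid-colon (3.99 ± 0.53 SE, adjusted p 5.94e-04).

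**Figure D3:**
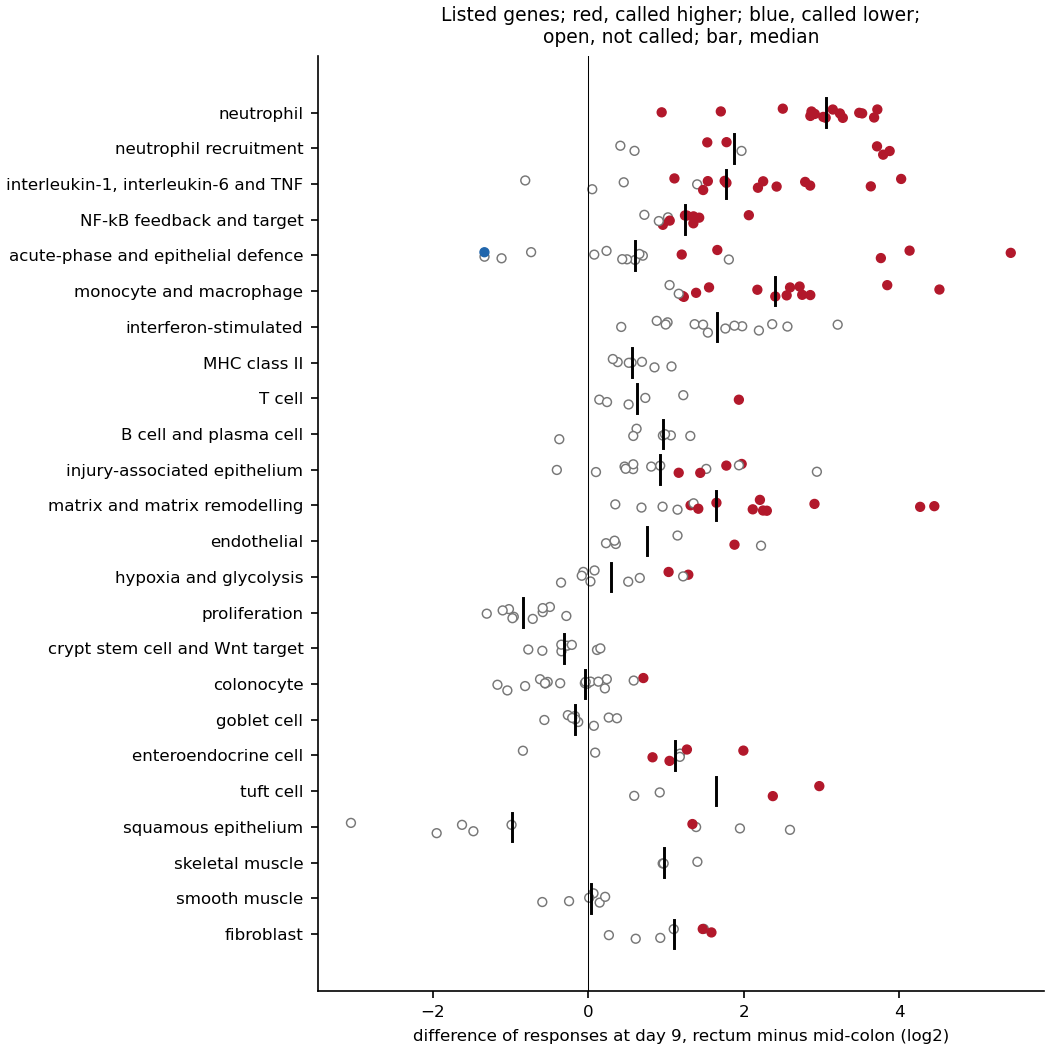
Difference of responses at day 9 (horizontal axis, log2) for each tested gene of 24 lists; filled red points are called higher in rectum, the filled blue point lower, open points are not called, and the bar is the list's median. The neutrophil list stands at 3.06 with all 15 points filled, the interferon list at 1.65 with none, and all 10 proliferation genes lie below 0.

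Interferon-stimulated genes had a high median and no call. None of 14 was called, the median was 1.65 and all 14 values were positive. All 14 rose in rectum and 6 in mid-colon. The mice disagreed: the median difference between the sections of a mouse was -0.37 in mouse 11, 1.58 in mouse 12 and 2.94 in mouse 13, against -0.51 to 0.02 in the 4 mice of day 0. Cxcl10, a chemokine for T cells, had 9.68, 383 and 369 TPM in rectum against 7.14, 49.8 and 8.41 TPM in mid-colon at day 9, in the order of mice 11, 12 and 13. Ifng, interferon-gamma itself, had 0.246, 31.7 and 22.7 TPM in rectum against 0.0498, 1.90 and 0.450 TPM in mid-colon. Gbp2, a guanylate-binding protein, had 121, 989 and 419 TPM in rectum against 276, 409 and 61.8 TPM in mid-colon. Mouse 11 was the lowest in rectum for each of the 3. Their differences were 3.21 ± 1.38 SE, 2.56 ± 1.11 SE and 1.37 ± 0.91 SE, adjusted p 0.227, 0.232 and 0.477. Without mouse 11, 9 of the 14 genes were called higher, with a median of 2.64.

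Genes of antigen presentation and lymphocytes gave few calls, beside 5.84% of all genes called higher. None of the 7 class II genes was called, with a median of 0.56, while all 7 rose in rectum and 6 in mid-colon. H2-Aa, a class II chain, went from 117, 83.3, 87.8 and 162 to 323, 545 and 594 TPM in rectum and from 52.1, 51.1, 51.3 and 63.8 to 144, 174 and 125 TPM in mid-colon (0.69 ± 0.34 SE, adjusted p 0.297). Of 6 T cell genes tested, Gzmb, the cytotoxic protease granzyme B, was called higher (1.94 ± 0.51 SE, adjusted p 0.0349), with 11.8, 30.7 and 12.9 TPM in rectum against 5.41, 4.86 and 1.00 TPM in mid-colon, and no T cell gene was called with TMM factors or without mouse 13. None of 7 B and plasma cell genes was called, 1 with the mouse as a block. Jchain, which plasma cells make, fell from 114, 26.4, 36.8 and 60.7 to 16.7, 16.8 and 19.5 TPM in rectum and from 139.8, 26.4, 53.6 and 84.6 to 10.1, 18.0 and 17.1 TPM in mid-colon (0.58 ± 0.71 SE). Jchain was high in both sections of mouse 1 at day 0.

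Among matrix-degrading enzymes, Mmp10 had the lowest adjusted p of the 13520 genes. Of the 15 genes of matrix and matrix remodelling 10 were higher in the rectal response and none lower, with a median of 1.65, and 6 without mouse 13. In rectum 12 rose and none fell, and in mid-colon 7 rose and 2 fell.

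Mmp10 (ENSMUSG00000047562, GRCm38 chr9:7502352-7510240, plus strand), stromelysin-2, had 0.345, 0.738, 0.341 and 0.251 TPM in rectum at day 0 and 85.4, 84.9 and 70.6 TPM at day 9. In mid-colon it had 0.284, 0.351, 0.221 and 0.451 TPM at day 0 and 3.21, 2.26 and 2.06 TPM at day 9. The 3 rectal values lay close together and far above the mid-colonic ones, and the difference was 4.45 ± 0.23 SE, adjusted p 1.87e-07. Mmp13 (ENSMUSG00000050578, GRCm38 chr9:7272514-7283331, plus strand), a collagenase, had 0.927, 0.605, 0.815 and 0.975 TPM at day 0 and 56.3, 101 and 66.7 TPM at day 9 in rectum, and 0.557, 0.261, 0.623 and 0.571 TPM at day 0 and 2.02, 2.83 and 1.61 TPM at day 9 in mid-colon (4.27 ± 0.28 SE, adjusted p 2.57e-06). With any mouse left out, the adjusted p of Mmp10 and Mmp13 stayed at or below 1.31e-05 and 1.10e-04. Mmp3, stromelysin-1, had 73.3, 78.6 and 98.9 TPM in rectum against 12.0, 6.63 and 7.95 TPM in mid-colon (2.91 ± 0.30 SE, adjusted p 1.70e-04). Mmp7, matrilysin, differed from these in overlapping between the sections at day 9, with 2.91, 4.01 and 1.96 TPM in rectum against 2.76, 1.70 and 1.59 TPM in mid-colon (0.35 ± 0.26 SE, adjusted p 0.532).

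An inhibitor of these proteases was higher as well. Timp1, the inhibitor of metalloproteinases, went from 2.35, 2.18, 3.43 and 2.16 to 94.2, 113 and 118 TPM in rectum and from 1.94, 1.42, 3.19 and 1.84 to 12.7, 23.1 and 20.5 TPM in mid-colon (2.30 ± 0.31 SE, adjusted p 6.80e-04). Plau, the plasminogen activator urokinase, had 24.0, 25.4 and 33.5 TPM in rectum against 1.80, 6.11 and 3.95 TPM in mid-colon (2.12 ± 0.38 SE, adjusted p 0.00376). Col3a1, type III collagen, had 229, 259, 274 and 234 TPM at day 0 and 363, 262 and 473 TPM at day 9 in rectum, and fell from 139, 141, 186 and 186 to 52.8, 117 and 126 TPM in mid-colon. Its call was marginal (1.32 ± 0.37 SE, adjusted p 0.0494, up to 0.13 with a mouse left out).

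Fibroblast and endothelial markers gave fewer calls. Of 7 fibroblast genes, Pdpn and Vim were higher, 5 with the mouse as a block, and the median was 1.10. Pdpn, podoplanin of activated stroma, had 3.34, 3.31, 3.81 and 4.15 TPM at day 0 and 32.1, 21.1 and 29.6 TPM at day 9 in rectum and 2.12, 2.29, 3.36 and 3.09 TPM at day 0 and 7.09, 6.80 and 5.57 TPM at day 9 in mid-colon (1.59 ± 0.25 SE, adjusted p 0.00152). Vim, vimentin, had 131, 178, 179.8 and 167 TPM at day 0 and 501, 477 and 456 TPM at day 9 in rectum and 84.8, 83.3, 113 and 109.9 TPM at day 0 and 129, 92.9 and 88.6 TPM at day 9 in mid-colon (1.47 ± 0.23 SE, adjusted p 0.00152), and is made by leukocytes as well. Dcn, decorin, the most abundant of the list, was not called without the block (1.49 ± 0.42 SE, adjusted p 0.0512, 0.00354 with it and 0.00663 without mouse 11). Of 6 endothelial genes 1 was higher, and 2 with the mouse as a block, beside 5.84% of all genes called higher (6.8% with the block). Selp, P-selectin, which captures leukocytes, was the one, at 14.0, 4.45 and 13.6 TPM in rectum against 0.910, 1.20 and 1.20 TPM in mid-colon (1.88 ± 0.47 SE, adjusted p 0.0251, 0.156 without mouse 13). Pecam1, which myeloid cells also express, had 17.4, 167 and 103 TPM in rectum in the order of mice 11, 12 and 13 and was not called without the block (2.22 ± 0.81 SE, adjusted p 0.136, 0.0403 with it and 0.00308 without mouse 11).

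Of 15 genes of the injury-associated epithelial state 13 rose in rectum and 9 in mid-colon, and 4 had the higher rectal response (7 with the mouse as a block, 1 without mouse 13), with a median of 0.93. Msln, mesothelin, had 0.297, 0.136, 0 and 0.377 TPM at day 0 and 8.41, 5.95 and 3.90 TPM at day 9 in rectum and 0.444, 0.569, 0.470 and 0.312 TPM at day 0 and 0.448, 1.38 and 1.72 TPM at day 9 in mid-colon (1.97 ± 0.34 SE, adjusted p 0.00276). Ereg, a ligand of the EGF receptor that supports crypt regrowth, had 13.8, 15.4 and 26.2 TPM in rectum against 1.33, 6.49 and 3.93 TPM in mid-colon (1.78 ± 0.45 SE, adjusted p 0.0283, 0.149 without mouse 13). The fetal-like marker Ly6a (Sca-1) rose to 3684, 7018 and 4766 TPM in rectum, from 550.1 to 738 TPM, and to 3589, 5793 and 3593 TPM in mid-colon, from 575 to 936 TPM. Its difference of 0.58 ± 0.32 SE was not called (adjusted p 0.377). Ly6a belongs to a family with close copies. Ptgs2, cyclo-oxygenase-2, had 5.42, 88.9 and 75.2 TPM in rectum against 1.08, 9.69 and 1.45 TPM in mid-colon, low in mouse 11 in both (2.94 ± 1.05 SE, adjusted p 0.128, 0.0167 with the block).

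Proliferation genes had negative differences, none of which was called. All 10 genes rose in both sections, and all 10 differences were negative, with a median of -0.84. With the mouse as a block 4 were called lower in the rectal response, and with TMM factors 4. Pcna, the sliding clamp of DNA replication, went from 87.1, 84.4, 89.1 and 83.7 to 334, 289 and 278 TPM in rectum and from 72.5, 55.1, 96.5 and 80.2 to 337, 416 and 349.5 TPM in mid-colon (-0.49 ± 0.22 SE, adjusted p 0.25). Birc5, survivin, went from 29.2, 31.4, 31.6 and 25.3 to 100.4, 112 and 112 TPM in rectum and from 19.5, 19.9, 21.6 and 9.74 to 104, 233 and 165 TPM in mid-colon (-1.31 ± 0.37 SE, adjusted p 0.0515, 0.0171 with the block). Cdk1, the mitotic kinase, rose to 92.4, 142 and 111 TPM in rectum, from 20.1 to 29.8 TPM, and to 109, 163 and 148 TPM in mid-colon, from 10.4 to 18.8 TPM (-0.98 ± 0.30 SE, adjusted p 0.0674, 0.00636 with the block). Within a mouse, the median of rectum minus mid-colon over the list was 0.46 to 1.09 at day 0, higher in rectum, and at day 9 it was 0.07, -0.56 and -0.25 in mice 11, 12 and 13. Kif22, a chromosome-binding motor outside the list, was called: it had 7.24, 7.78, 8.00 and 6.18 TPM at day 0 and 26.5, 19.9 and 26.7 TPM at day 9 in rectum and 4.11, 5.16, 5.44 and 2.82 TPM at day 0 and 27.5, 48.8 and 37.5 TPM at day 9 in mid-colon (-1.24 ± 0.30 SE, adjusted p 0.0225, up to 0.102 with a mouse left out).

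**Figure D4:**
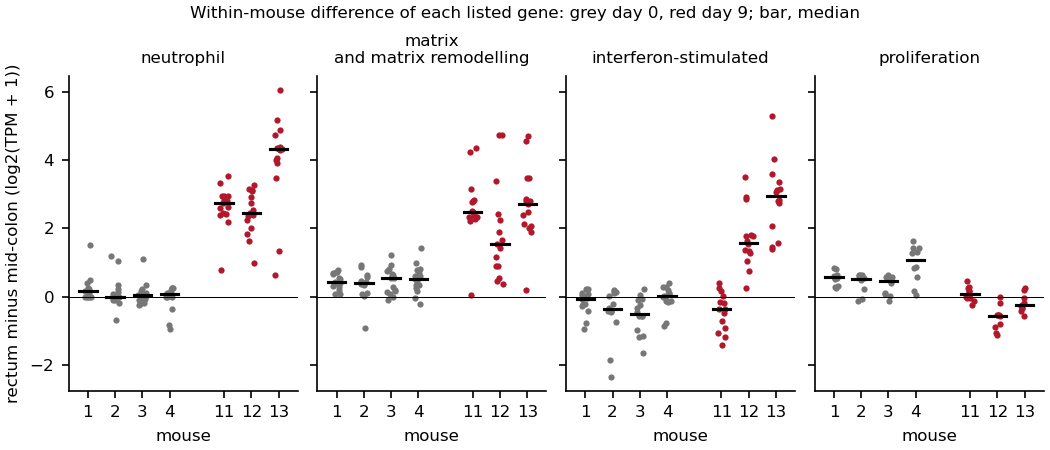
Rectum minus mid-colon of the same mouse, in log2(TPM + 1) (vertical axis), for each tested gene of 4 lists; columns are mice, grey at day 0 and red at day 9, and bars are medians over the genes. The neutrophil medians are near 0 in mice 1 to 4 and 2.44 to 4.33 in mice 11 to 13, while the interferon median of mouse 11 stays at -0.37.

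Most colonocyte genes fell in each section, and goblet and stem cell genes gave no call between them. Of 17 colonocyte genes 12 fell in rectum and 11 in mid-colon, and 1 was higher in the rectal response, with a median difference of -0.04. With the mouse as a block 1 was higher and 2 lower. Over all genes tested 19.2% fell in rectum, 17.7% fell in mid-colon and 5.84% were higher in the rectal response. The 1 higher colonocyte gene thus lies near the share over all genes. Car4, a carbonic anhydrase of the brush border, fell from 2731, 3056, 3297 and 3230.4 to 1760.3, 1082 and 1535 TPM in rectum and from 3802, 4074, 4982 and 5674 to 2273, 1296 and 2103 TPM in mid-colon (0.21 ± 0.29 SE, adjusted p 0.769). Slc26a3, the chloride-bicarbonate exchanger, fell to 112, 38.6 and 60.6 TPM in rectum, from a range of 1011 to 1291 TPM, and to 285, 94.1 and 228 TPM in mid-colon, from 1129.9 to 1710.0 TPM. Its difference of -1.17 ± 0.50 SE was not called without the block (adjusted p 0.222, 0.00382 with it and 0.0279 without mouse 12). Krt20, a keratin of surface cells, was the called gene: it had 809, 866 and 773 TPM in rectum, from 585 to 721 TPM, and fell to 494, 734 and 653 TPM in mid-colon, from 710.0 to 879 TPM (0.71 ± 0.19 SE, adjusted p 0.0383, 0.0529 with TMM factors and up to 0.143 with a mouse left out). None of 9 goblet cell genes was called, with 5 falling in rectum and 4 in mid-colon. Zg16, a lectin of the mucus layer, was at 8759, 5476 and 7953 TPM in rectum against 17050.3, 8381 and 11387 TPM in mid-colon (0.26 ± 0.31 SE). None of 8 crypt stem cell and Wnt target genes was called. Lrig1 was the most abundant of them, at 6.60, 6.84 and 9.91 TPM in rectum against 6.29, 14.3 and 13.5 TPM in mid-colon (-0.59 ± 0.41 SE).

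Of 8 hormone genes of enteroendocrine cells 4 were higher in the rectal response (5 with the mouse as a block, 1 without mouse 13), with a median of 1.11, and 8 rose in rectum and 6 in mid-colon. Tph1 (ENSMUSG00000040046, GRCm38 chr7:46644641-46672537, minus strand), which makes serotonin in enterochromaffin cells, had 2.51, 1.60, 2.29 and 3.02 TPM at day 0 and 28.7, 15.0 and 12.9 TPM at day 9 in rectum, and 4.24, 3.63, 4.98 and 3.26 TPM at day 0 and 9.76, 4.45 and 5.03 TPM at day 9 in mid-colon. At day 0 the level was lower in rectum, and at day 9 every rectal sample was above every mid-colonic one (2.00 ± 0.39 SE, adjusted p 0.00649). Mast cells also express Tph1. Pyy, peptide YY of L cells, went from 163, 161, 181 and 183 to 835, 658 and 959 TPM in rectum and from 281, 217, 187 and 195 to 616, 557 and 557 TPM in mid-colon (0.83 ± 0.21 SE, adjusted p 0.0299). Sct, secretin, had 12.8, 21.9 and 19.5 TPM in rectum against 7.09, 10.0 and 11.1 TPM in mid-colon (1.27 ± 0.32 SE, adjusted p 0.0296). Insl5, an L cell peptide of the distal bowel, rose from a range of 34.3 to 63.6 TPM to 161, 235 and 223 TPM in rectum and from 91.2 to 146 TPM to 219.8, 222 and 226 TPM in mid-colon, so that its sections met at day 9 (1.05 ± 0.29 SE, adjusted p 0.0484). Gcg, proglucagon of the same L cells, rose by 3.28 in rectum and 3.19 in mid-colon, with a difference of 0.09 ± 0.21 SE that was not called (adjusted p 0.876). Without mouse 13 the adjusted p was 0.21 for Pyy, 0.111 for Sct and 0.23 for Insl5, and with TMM factors it was 0.0723 for Sct and 0.125 for Insl5.

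The remaining lists were checks on which tissue the sections held. The tuft cell list gave 2 calls among 4 tested genes (3 with the mouse as a block), among them Alox5ap (2.38 ± 0.44 SE), which myeloid cells express too. The tuft cell genes Trpm5, Pou2f3 and Il25 were too low to be tested, with Il25 listed at 0 in every day 9 sample. Of 9 squamous genes Dsg3, a desmosomal cadherin of squamous epithelium, was higher (1.34 ± 0.31 SE, adjusted p 0.0186, up to 0.0718 with a mouse left out), at 11.7, 5.54 and 5.23 TPM in rectum against 1.83, 1.85 and 1.33 TPM in mid-colon. The median over the 9 genes was -0.99, and 4 of the 9 differences were positive. Over all genes 5.84% were called higher. Krt14, a basal keratin, had 323, 60.5 and 45.9 TPM in rectum, highest in mouse 11, and was not called (1.95 ± 0.75 SE, adjusted p 0.165). None of 6 smooth muscle and 3 skeletal muscle genes was called. Tagln, a smooth muscle actin-binding protein, had 539.8, 113 and 481 TPM in rectum against 279, 217 and 259.9 TPM in mid-colon at day 9 (0.22 ± 0.53 SE), and Acta1, skeletal actin, had 2.86, 15.2 and 76.9 TPM in rectum against 1.52, 4.74 and 13.1 TPM in mid-colon (0.96 ± 1.07 SE). The part of these other tissues in the results above was not tested. Among 10 genes of hypoxia and glycolysis 2 were higher, Pfkfb3 (1.29 ± 0.36 SE, adjusted p 0.0469) and Ndrg1 (1.03 ± 0.25 SE, adjusted p 0.0219), with 0 without mouse 13. The call of Pfkfb3 was lost with TMM factors (adjusted p 0.0878) and without any single mouse other than mouse 11 (up to 0.277). That of Ndrg1 was lost without mouse 2, 3 or 13 (up to 0.115). Ldha, lactate dehydrogenase, was not called, at 1698, 1908 and 1776 TPM in rectum against 1579, 2035 and 1954 TPM in mid-colon (-0.06 ± 0.15 SE).

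Genes with the lower rectal response are named here because they had the largest negative differences, and they form no fixed list. Cbr3 (ENSMUSG00000022947, GRCm38 chr16:93683215-93690990, plus strand), a carbonyl reductase, had 24.0, 23.6, 29.4 and 23.6 TPM in rectum at day 0 and 9.18, 7.25 and 7.14 TPM at day 9. In mid-colon it had 31.2, 28.2, 23.4 and 18.2 TPM at day 0 and 24.0, 19.0 and 26.7 TPM at day 9. It fell in rectum and gave no call in mid-colon, the groups at day 9 did not overlap, and the call held under every alternative tried (-1.46 ± 0.26 SE, adjusted p 0.00326). Akr1c19, an aldo-keto reductase, fell in both, to 44.2, 36.5 and 26.8 TPM from 159 to 214 TPM in rectum and to 73.7, 68.8 and 96.8 TPM from 136 to 184 TPM in mid-colon (-1.32 ± 0.25 SE, adjusted p 0.00526). Members of the Akr1c family are similar in sequence, so its value is uncertain.

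Cdo1, cysteine dioxygenase, fell from 11.9, 14.5, 13.5 and 14.2 to 6.81, 4.93 and 5.23 TPM in rectum and had 12.2, 11.5, 11.3 and 7.11 TPM at day 0 and 9.18, 10.9 and 16.3 TPM at day 9 in mid-colon (-1.31 ± 0.29 SE, adjusted p 0.0131, 0.111 without mouse 13). Cbs, which makes cystathionine from homocysteine, fell to 2.29, 1.28 and 1.07 TPM in rectum from 6.87 to 8.37 TPM, with 5.92, 3.69 and 9.81 TPM in mid-colon from 6.20 to 10.6 TPM (-1.37 ± 0.36 SE, adjusted p 0.0349). Aldh1a7, an aldehyde dehydrogenase, had 3.08, 1.25 and 1.59 TPM in rectum against 5.86, 2.70 and 6.28 TPM in mid-colon (-1.27 ± 0.34 SE, adjusted p 0.0379). Gsta3, a glutathione transferase, had 14.9, 9.65 and 5.38 TPM in rectum against 23.7, 16.4 and 29.4 TPM in mid-colon (-1.42 ± 0.39 SE, adjusted p 0.0446, 0.057 with the block). The calls of Cbs, Aldh1a7 and Gsta3 were lost without mouse 13, at adjusted p 0.232, 0.261 and 0.277. Each was lost too without any single day 0 mouse, at adjusted p from 0.0666 to 0.152. Defb45, a beta-defensin gene, had the most negative value of the named genes. It fell from 23.4, 31.0, 39.7 and 27.0 to 1.13, 6.50 and 5.09 TPM in rectum and had 12.0, 12.5, 17.5 and 8.39 TPM at day 0 and 6.10, 7.89 and 7.23 TPM at day 9 in mid-colon (-2.02 ± 0.50 SE, adjusted p 0.024, up to 0.0817 with a mouse left out). Cldn8, a sealing claudin of distal colonic tight junctions, fell from 72.0, 58.9, 57.4 and 58.2 to 40.5, 21.8 and 22.1 TPM in rectum and had 59.0, 49.5, 41.9 and 38.7 TPM at day 0 and 59.2, 39.4 and 52.3 TPM at day 9 in mid-colon (-1.24 ± 0.31 SE, adjusted p 0.0244, 0.182 without mouse 13). The call of Cldn8 was lost without mouse 2, 3 or 4 as well.

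The same contrast at the neighbouring days gave almost no calls. At day 6, when DSS ended, 0 of 12986 genes (0%) were called by limma (730 at an unadjusted p under 0.05); a block for the mouse gave 76. At day 14, 1 of 13247 genes (0.00755%) was called (563 at an unadjusted p under 0.05), 0 with the block, but 311 without mouse 14. Both days use the day 0 samples of day 9, so their values are only set side by side. Few calls do not show that a difference was absent. Of the 790 genes, 604 of 650 fitted at day 6 and 648 of 668 at day 14 kept their sign, with medians of 0.51 and 0.63. Of the 95 genes, 88 of 94 and 77 of 93 did, with medians of -0.37 and -0.26. The shared day 0 samples make equal signs more likely. Saa3 had differences of 3.78 ± 1.15 at day 6, 5.44 ± 0.43 SE at day 9 and 3.25 ± 1.90 at day 14 (each ± SE). Those of Lcn2 were 1.17 ± 0.66, 3.77 ± 0.64 SE and 2.14 ± 1.13, and those of Mmp10 2.64 ± 1.12, 4.45 ± 0.23 SE and 2.24 ± 1.10. The standard errors of these 3 genes were larger at days 6 and 14 than at day 9. Cbr3 had -0.33 ± 0.24, -1.46 ± 0.26 SE and 0.04 ± 0.36, and Tph1 0.93 ± 0.34, 2.00 ± 0.39 SE and 0.21 ± 0.37.

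The course of the levels shows where day 9 stands. Lcn2 at days 6, 9 and 14 averaged 43.0 ± 42.3, 608 ± 163 and 64.5 ± 56.8 TPM in rectum (mean ± SD of 3 mice), and in mid-colon 18.7 ± 8.77, 71.9 ± 57.3 and 11.3 ± 7.01 TPM. Mmp10 in rectum averaged 111 ± 162, 80.3 ± 8.39 and 28.4 ± 27.6 TPM at these days, with the widest spread at day 6. Cbr3 was low in both sections at day 6, at 5.41 ± 1.16 TPM in rectum against 6.88 ± 0.451 TPM in mid-colon. By day 9 it stood at 23.2 ± 3.94 TPM in mid-colon and 7.85 ± 1.15 TPM in rectum, and by day 20 at 13.9 ± 5.68 and 20.3 ± 9.29 TPM. In the squamous neo-epithelium of day 9 from the same mice, Saa3 averaged 3418 ± 1964 TPM, Lcn2 510.3 ± 241 TPM and Mmp10 71.7 ± 35.1 TPM, and in the anus of day 9 154 ± 74.5, 163 ± 59.8 and 0.555 ± 0.660 TPM (SD, n = 3 each).

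**Figure D5:**
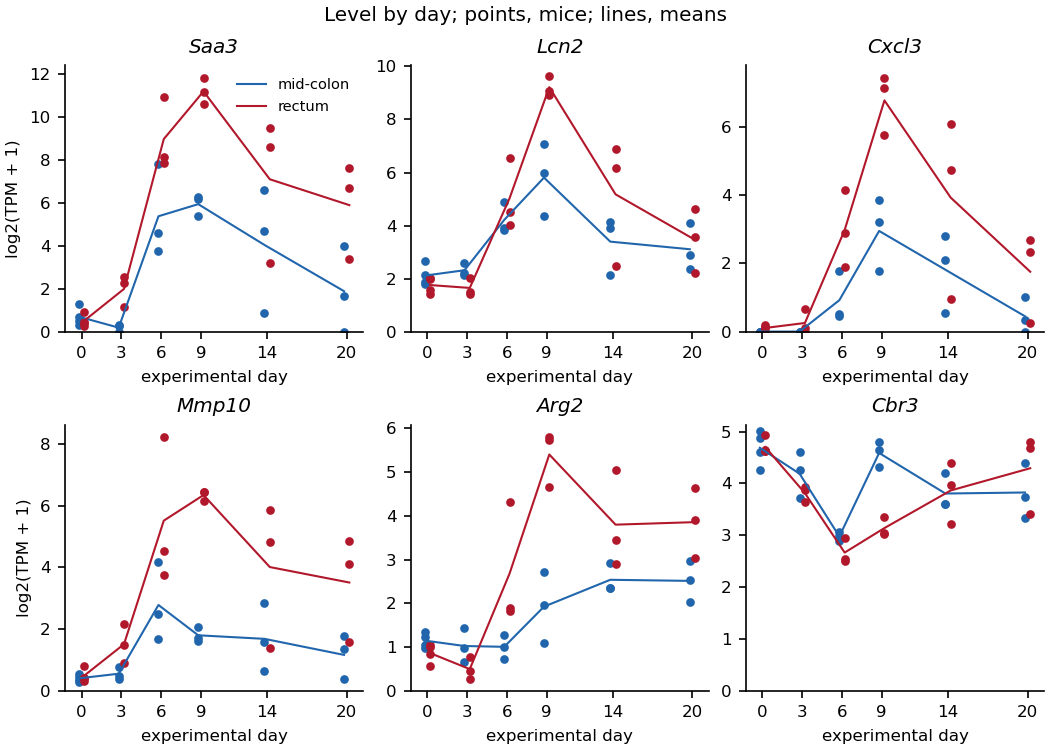
Level of 6 genes by experimental day (horizontal axis) in mid-colon (blue) and rectum (red), as log2(TPM + 1); points are mice, 4 at day 0 and 3 at each later day, and lines join group means. At day 9, for each of the 6 genes, all 3 rectal points lie on the same side of all 3 mid-colonic points. The 6 genes were taken from those named for the largest called differences, so the choice partly set this separation.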

How the data were processed

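Muscle-stripped sections were measured by stranded mRNA sequencing (single-end, 75 bp), per the labels' protocols. The deposited signal is TPM (transcript abundance scaled to a common library total) per transcript and library. kallisto, CASAVA and build mm10 are named, without versions, per the submitters' processing notes; the annotation is not given in the sources used here. Of 126860 rows in the authors' table, 37344 held no value and 1318 repeated a transcript and were dropped, after which column totals ran from 999999.8 to 1000000.2 TPM. The 88198 transcripts were summed to 30452 genes, and 1284 transcripts without a gene identifier were left out of them. All deposited columns matched a sample.

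Genes with at least 1 TPM in at least 3 of the 14 samples were tested. A gene can pass through the 3 day 9 rectal samples alone, as Csf3, Il6 and Il22 did. limma 3.58.1 (R 4.3.3), with a prior that follows mean expression, was fitted to log2(TPM + 1), a pseudocount of 1 that understates changes of low genes, with 4 group means. Benjamini-Hochberg adjustment ran over all genes tested, and p values under 0.05 after adjustment were called. Python 3.11.15, pandas 2.3.3 and matplotlib 3.10.9 did the rest. The fit was tested on simulated data of 13580 genes at the day 9 design: it called 45 of 100 genes changed by 1 (log2), 95 of 100 changed by 2 and 10 of 13380 unchanged ones. The changed genes were drawn from those with a mean log2(TPM + 1) above 3, and the noise was independent between samples. The rates therefore do not cover genes near 0 before injury, nor sections that share a mouse. Depth is unknown, since TPM keeps none, so no counting interval is given. No 2 libraries held identical values.

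Alternatives were the mouse as a block, TMM factors (trims of 30% and 5%), mitochondrial genes left out, pseudocounts of 0.1 and 5, no filter, at least 5 TPM, all 6 days in one fit, and each mouse left out in turn. The labels tie both sections to a mouse, so same-numbered samples share an animal. The deviations of a mouse's sections from their group means correlated at 0.17, 0.06, -0.01 and 0.31 in mice 1 to 4 and at 0.34, 0.27 and 0.16 in mice 11 to 13 (across genes, which are not independent).

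The comparison and the 24 gene lists were chosen with earlier results of these data known. Genes named are, by rule, the 15 most positive and 10 most negative called differences among genes averaging at least 8 TPM in a group, with day 9 mice apart from day 0 mice and with a proper symbol; the 2 largest called members and the most abundant member of each list; and further list members beside their list's count. Loci come from GENCODE M21 (GRCm38) and promoters from RefSeq (GRCm38.p6), with 9840 of 13481 gene symbols matched. Single-cell data were not used here, and a few genes that the rule or the lists hold are not reported here.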

Additional observations from a re-analysis of the deposited data

Results flagged for a closer look

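The 25 genes below were flagged because the response at day 9 differed between rectum and mid-colon, tested as the difference itself in limma, and each is described with its values above. The 15 with the higher rectal response were Saa3 (5.44), Ccl4 (4.52), Mmp10 (4.45), Mmp13 (4.27), Hp (4.14), Il1b (4.03), Chil1 (3.99), Cxcl2 (3.88), Ccl3 (3.85), Csf3 (3.80), Lcn2 (3.77), Arg2 (3.76), Stfa2l1 (3.74), Acod1 (3.72) and Cxcl3 (3.72), each as the difference on the log2(TPM + 1) scale. The 10 with the lower rectal response were Defb45 (-2.02), Cbr3 (-1.46), Gsta3 (-1.42), Cbs (-1.37), Nox1 (-1.34), Akr1c19 (-1.32), Cdo1 (-1.31), Aldh1a7 (-1.27), Cldn8 (-1.25) and Kif22 (-1.24).

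In the same 25 genes, 1 uninjured sample lay apart from the other 3 of its group in 9 of 50 groups, by Dixon's criterion. For Ccl4 and Cxcl2 in rectum and for Ccl3 and Acod1 in mid-colon, the other 3 samples were listed at 0. The criterion then marks the remaining sample whatever its value, so the 9 groups are not set against a rate from chance. In rectum the sample apart was at 0.155 for Ccl4, 0.0973 for Cxcl2, 4.93 for Cbr3 and 6.19 for Cldn8, in log2(TPM + 1). In mid-colon it was at 0.335 for Mmp13, 0.57 for Ccl3, 0.0232 for Acod1, 3.02 for Cdo1 and 3.07 for Aldh1a7. For Ccl4, Cxcl2, Mmp13, Ccl3 and Acod1 these levels were far below those of day 9.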

How the results depend on the processing

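The 885 genes called at day 9 became 444 with a pseudocount of 0.1, 501 with all 6 days in one fit and 353 to 1156 with a mouse left out; the other alternatives gave 649 to 1162. The mouse as a replicate block gave 1064, of which 795 were among the 885. Beside the 6926 calls of the rectal response and the 6237 of the mid-colonic one, leaving out a mouse gave 6000 to 6903 and 5377 to 6348. At day 6, 0 genes were called by limma, against 76 with the block, 10 with a pseudocount of 5, 2 without a filter, 2 with all days and 0 to 17 with a mouse left out. At day 14, 1 gene was called, against 0 with the block, 2 with TMM factors, 3 without mitochondrial genes, 5 without a filter, 0 at 5 TPM or more, 2 with all days and 0 to 311 with a mouse left out. Leaving out a mouse leaves fewer samples, and the cause of the other shifts was not tested. Of 116 genes that the rule or the text names, 85 were called, and 29 of these kept the call in all 15 alternatives. The called genes kept their direction in all 1269 alternative values, of which 281 missed the threshold. Among genes that were not called, Tagln (0.22) was at -0.11 without mouse 11 and -0.08 without mouse 13 (-0.11 to 0.84 over the mice left out), and Gcg (0.09) at -0.0057 without mitochondrial genes and -0.068 without mouse 11 (-0.068 to 0.27 over the mice). The block changed the call of the 11 named genes given with it above, and of no other named gene. The median of the smooth muscle list, 0.04, was -0.03 with TMM factors and -0.05 without mitochondrial genes. TPM carries no depth, so what depth limits cannot be stated.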

Other observations

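Of the 790 genes with the higher rectal response, 14 rose in rectum and fell in mid-colon. Those described here were chosen after their values were seen. Fth1, the heavy chain of the iron store ferritin, averaged 3299 ± 220.4 TPM in rectum at day 0 and 6636 ± 1180.0 TPM at day 9, against 3035 ± 225 and 2014 ± 525 TPM in mid-colon (SD, n = 4 at day 0 and 3 at day 9). Its difference was 1.61 ± 0.22 SE, adjusted p 6.25e-04 in limma. Cd83, a marker of activated dendritic cells and B cells, went from 5.05 ± 1.23 to 16.4 ± 3.43 TPM in rectum and from 5.95 ± 0.549 to 3.02 ± 0.729 TPM in mid-colon (2.33 ± 0.28 SE, adjusted p 3.34e-04). Fth1 and Cd83 kept their call in all 15 alternatives. The others included Psap, Bmp1, Aldh3b1, Errfi1, Dgat2, Rab20, Dusp4, Loxl1, Rab31, Fbln2 and Msrb1.

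Cell-cycle genes outside the proliferation list gave calls that the list did not. Gins2, a subunit of the replicative helicase, rose from 8.45 ± 1.18 to 21.2 ± 3.35 TPM in rectum and from 5.67 ± 1.21 to 34.7 ± 4.89 TPM in mid-colon (-1.20 ± 0.25 SE, adjusted p 0.0096). Tk1, thymidine kinase, rose from 13.9 ± 2.03 to 61.0 ± 2.00 TPM in rectum and from 9.77 ± 1.11 to 86.1 ± 16.9 TPM in mid-colon (-0.93 ± 0.22 SE, adjusted p 0.0167). Without mouse 13 the adjusted p was 0.105 for Gins2 and 0.103 for Tk1. Both were picked for being called, so they are no test of the list.

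Cbr1 and Cth too were picked after their values were seen. Cbr1, the carbonyl reductase gene next to Cbr3 on chromosome 16, fell from 230.3 ± 14.8 to 38.6 ± 9.53 TPM in rectum and from 252 ± 19.0 to 91.0 ± 22.8 TPM in mid-colon (-1.09 ± 0.24 SE, adjusted p 0.0141). Cth, which follows Cbs in the route from homocysteine to cysteine, went from 39.5 ± 3.67 to 10.1 ± 1.98 TPM in rectum and from 41.8 ± 3.53 to 20.1 ± 3.08 TPM in mid-colon (-0.85 ± 0.21 SE, adjusted p 0.0274). Without mouse 13 the adjusted p was 0.127 for Cbr1 and 0.185 for Cth, and Cbr1 and Cbr3 are similar in sequence. Il10 and Gpr84 were among the 5 lowest adjusted p-values of the 13520 genes. Gpr84, a receptor of neutrophils and macrophages for medium-chain fatty acids, went from 0.00978 ± 0.0196 to 11.2 ± 1.44 TPM in rectum and from 0.0115 ± 0.0230 to 0.994 ± 0.480 TPM in mid-colon (2.63 ± 0.23 SE, adjusted p 4.10e-05).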
